A study of Mus musculus with 3 samples.

Results

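The nuclear-encoded genes of oxidative phosphorylation were examined for binding by CELF1 (also called CUGBP1). They were taken as every protein-coding mouse gene whose official symbol begins with Nduf, Sdh, Uqcr, Atp5, Cox4, Cox5, Cox6, Cox7 or Cox8. The symbol prefix was the only criterion, so no measured value chose them. There were 100 such genes, of which 64 held a CELF1 cluster in at least 1 library and 36 held none. Of all 20310 annotated protein-coding genes, 7961 held a cluster in at least 1 library. The clusters of the 100 genes numbered 297 of the 72222 in the series. CELF1 binding had been mapped by CLIP-seq, in which ultraviolet light at 254 nm fixes a protein to the RNA it touches and the bound fragments are recovered with an antibody and sequenced. The libraries came from heart ventricle and from muscle of C57/BL6 mice aged 16 weeks (which muscle was not stated), and from C2C12 cells, a mouse line of cultured myoblasts. The antibody was 3B1, raised against CELF1, in all 3 libraries. Each source gave 1 library, so no value below has a replicate, every interval and p-value covers counting error only, and each comparison is one of libraries rather than of conditions. A cluster is a stretch of a gene in which the authors found more reads than expected from the expression and length of that gene's unspliced RNA. The deposited clusters carry positions but no read numbers, so the depth behind a cluster is unknown.

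Oxidative phosphorylation takes place at the inner mitochondrial membrane. Complexes I and II pass electrons from NADH and succinate to ubiquinone, complexes III and IV pass them on through cytochrome c to oxygen, and complex V, the ATP synthase, uses the resulting proton gradient to make ATP. Most subunits are encoded in the nucleus, so their mRNAs are spliced, exported and translated like any other before the proteins enter mitochondria, and heart and skeletal muscle are among the tissues richest in them. CELF1 binds RNA rich in G and U with a UGU core and acts in alternative splicing, mRNA decay and translation.

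Stretches covered by clusters of more than 1 library are printed here because they locate the shared binding to single exons, introns and UTRs. Each line is the window of at most 30 nt within the shared stretch that held the most UGU, in mm9, 5′ to 3′ on the transcribed strand with T for U and every UGU in capitals. The first 2 lines are the only stretches common to all 3 libraries, both in introns. The Ndufs4 window lies at chr13:115165765-115165794 (minus strand) and the Sdhc window at chr1:173065046-173065072 (minus strand).
Ndufs4 intron, heart, muscle and myoblasts: TGTGTtTGTtttgagagagTGTGTcacTGT
Sdhc intron, heart, muscle and myoblasts: gaataTGTTGTcTGTGTGTGTGTGTGT

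Coding exon windows shared by heart and muscle came from Ndufs1 (chr1:63210313-63210342, minus strand), Ndufv1 (chr19:4008406-4008435, minus strand), Ndufs7 (chr10:79718705-79718734, plus strand), Sdhb (chr4:140528907-140528936, plus strand), Sdhc (chr1:173066198-173066227, minus strand) and Uqcrc2 (chr7:127788701-127788730, plus strand). The Ndufa4 window (chr6:11850560-11850589, minus strand) was the only coding stretch shared by heart and myoblasts. UGU lay singly or in short groups in these exons, without a GU run as long as that of the Sdhc intron window.
Ndufs1 coding exon, heart and muscle: aaTGTttaTGTctgaacTGTctgggaaTGT
Ndufv1 coding exon, heart and muscle: tcTGTGTGTgagaccgtgctaatggacttc
Ndufs7 coding exon, heart and muscle: ctcggtTGTtcgtggcTGTgaccgcatTGT
Sdhb coding exon, heart and muscle: taTGTaTGTgatcaaggatctagtcccTGT
Sdhc coding exon, heart and muscle: TGTtTGTgaagtcccTGTGTttggggccaa
Uqcrc2 coding exon, heart and muscle: atgccttggctaatccttTGTacTGTcctg
Ndufa4 coding exon, heart and myoblasts: ctactcTGTgaaTGTggactacagcaaact

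Windows of 3′ UTRs shared by heart and muscle came from Sdha (chr13:74460163-74460192, minus strand), Atp5g3 (chr2:73746568-73746597, minus strand) and Ndufaf4 (chr4:24829280-24829309, plus strand). The Uqcrfs1 window (chr13:30632589-30632618, minus strand) crosses from the coding exon into the 3′ UTR. Its line is labelled by the middle of the shared stretch, but its marked UGU lie in the coding part. The muscle cluster there was placed in a coding exon and the heart cluster in the 3′ UTR. The last line shows a shared coding stretch of Ndufs1 that held no UGU at all (chr1:63202807-63202836, minus strand).
Sdha 3′ UTR, heart and muscle: tTGTttTGTtcattctcTGTGTgaagtagg
Uqcrfs1 3′ UTR, heart and muscle: TGTagtTGTTGTgggttagacacgtggact
Atp5g3 3′ UTR, heart and muscle: TGTGTatcttgcTGTgactccgaagacTGT
Ndufaf4 3′ UTR, heart and muscle: TGTaTGTGTagttcctgggtataTGTtagc
Ndufs1 coding exon without UGU, heart and muscle: ctagttggtacaaatccacgttttgaggca

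The heart library held 42263 clusters, the muscle library 24844 and the myoblast library 5115. Most markers of heart and skeletal muscle held more clusters in the tissue of that label than in the other libraries. Ryr2, the heart ryanodine receptor, held 252 clusters in heart and none in muscle or myoblasts, Ryr1, its skeletal muscle counterpart, held 2 in heart, 49 in muscle and none in myoblasts, and the myogenic factor Myod1 held none in heart, 1 in muscle and 2 in myoblasts. The heart markers Myl7 and Nppa held no cluster in heart. Of the myoblast markers, the muscle filament gene Des held 3 in heart, 2 in muscle and none in myoblasts, and Myf5 and Mki67 held none in any library. Adult tissue also contains other cell types. Of 4 endothelial markers, none had a cluster in myoblasts. Flt1 held 21 clusters in heart and 13 in muscle, Pecam1 held 8 in heart and 5 in muscle, and Kdr 3 in heart and 1 in muscle, while Cdh5 held 2 in heart only. Of 4 fibroblast markers, Pdgfra held 1 in heart and 2 in muscle, Col1a2 and Col3a1 held 1 each in myoblasts alone, and Col1a1 held none. Of 3 adipocyte markers, Fabp4 held 3 in muscle alone, and Adipoq and Plin1 held none. Of 3 macrophage markers, Csf1r held 2 in heart alone, Adgre1 1 in muscle alone, and Cd68 held none. The part of other cell types in the counts below was not tested.

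Oxidative phosphorylation genes were bound mainly in the adult tissues. They held 187 clusters in 57 genes in heart, 99 clusters in 39 genes in muscle and 11 clusters in 9 genes in myoblasts. These were 0.442% of all heart clusters (95% exact Clopper-Pearson interval 0.381% to 0.510%), 0.398% of all muscle clusters (0.324% to 0.485%) and 0.215% of all myoblast clusters (0.107% to 0.384%). The heart and muscle intervals overlapped, and the upper end of the myoblast interval reached into that of muscle and just past the lower end of that of heart. Clusters of 1 gene are not independent, so these intervals are narrower than the true uncertainty.

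Of the 97 genes that could be matched to the annotation, 58.8% had a cluster in heart, against 33.4% of all 20310 annotated protein-coding genes. In muscle the share was 40.2%, against 26.0% of all genes. In myoblasts it was 9.28%, against 13.4% of all genes. Binding in both heart and muscle was found for 34 of the 97 genes (35.1%), against 22.3% of all genes. This background counts every annotated protein-coding gene, expressed in these sources or not, and the part of expression in the shares was not tested. The oxidative phosphorylation genes stood above that background in both adult tissues and below it in myoblasts. They are also shorter than most genes, with a median length of 7512 nt, a median 3′ UTR of 175 nt and a median of 3 introns, against 17623 nt, 751 nt and 6 introns over all protein-coding genes. Among the 10123 genes within their 10th to 90th percentile of gene length, 24.8% were bound in heart, 18.7% in muscle and 7.93% in myoblasts, against 63.6%, 44.2% and 10.4% of the 77 oxidative phosphorylation genes in that range. Within this range the share bound in myoblasts was thus also above that of other genes, unlike over genes of every length.

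Each bound gene carried fewer clusters on average than bound genes of every length. Heart averaged 3.28 clusters per bound gene, muscle 2.54 and myoblasts 1.22, against 6.16 in heart, 4.65 in muscle and 1.86 in myoblasts over all bound genes. The 10123 genes in the range of gene length held 6855 clusters in 2507 bound genes in heart. They held 4959 in 1888 in muscle and 1160 in 803 in myoblasts. Against that range, the average of the oxidative phosphorylation genes was higher in heart and lower in muscle and myoblasts. No gene exceeded 12 in heart, 10 in muscle or 2 in myoblasts. The 12 genes with the most clusters summed over the 3 libraries (the tie for the last place broken by symbol) held 89 of the 187 heart clusters (47.6%) and 57 of the 99 muscle clusters (57.6%). Heart had more clusters than muscle in 43 genes, muscle had more in 9 and the counts were equal in 10 that were bound in both. Heart alone bound 20 genes. The heart library was also the larger, with 42263 clusters in all against 24844 in muscle. Over all 20310 protein-coding genes, 6791 were bound in heart, 5281 in muscle and 4522 in both. Muscle alone bound Atp5k, Ndufa3, Ndufb10, Ndufb9 and Uqcrh, and myoblasts alone bound Cox6c and Cox8a. Clusters were present in all 3 libraries in Atp5c1, Ndufa4, Ndufs4 and Sdhc.

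**Figure D1:**
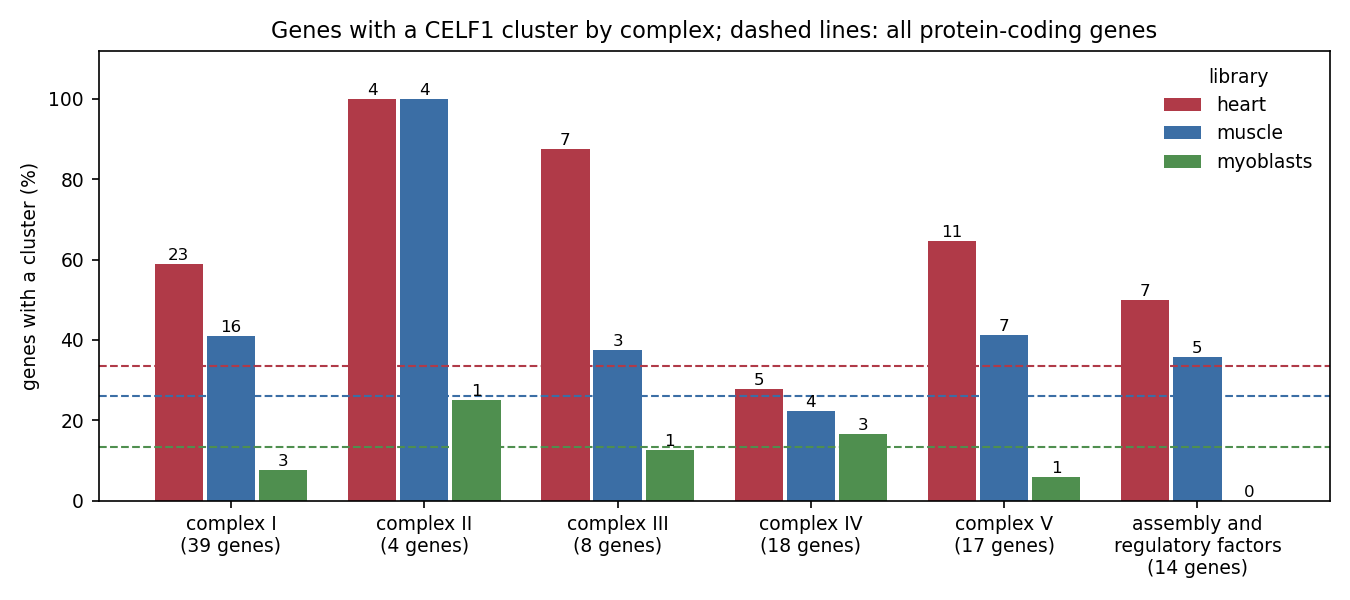
Percentage of the genes of each complex with at least 1 CELF1 cluster (vertical axis) in heart, muscle and myoblasts, with the number of bound genes above each bar and the share of all protein-coding genes bound in each library as a dashed line of the same colour. All 4 complex II genes were bound in heart and in muscle, while complex IV had 5 of 18 bound in heart and 4 of 18 in muscle, below the dashed line in both. The dashed lines cover genes of every length. These complex IV shares, 27.8% in heart and 22.2% in muscle, lay above those of all genes in the range of gene length (24.8% and 18.7%).

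The clusters lay more often in coding exons than those of other genes. In heart, 81 of 187 clusters lay in coding exons (43.3%, interval 36.1% to 50.7%), against 5.58% of the other heart clusters. In muscle, 35 of 99 did (35.4%, 26.0% to 45.6%), against 4.45% of the other muscle clusters. In myoblasts, 1 of 11 did (9.09%, 0.230% to 41.3%), against 3.80% of the other myoblast clusters, a difference that 11 clusters cannot resolve. The 3′ UTR held 38 heart clusters (20.3%, 14.8% to 26.8%, against 33.1% elsewhere), 26 muscle clusters (26.3%, 17.9% to 36.1%, against 50.2% elsewhere) and 1 myoblast cluster (9.09%, against 34.0% elsewhere). These shares also depended on the genes compared. Over all protein-coding genes in the range of 3′ UTR length, 18.3% of heart clusters and 30.8% of muscle clusters lay in 3′ UTRs, and in the range of gene length 58.7% of heart clusters and 72.4% of muscle clusters did. Coding exons held 10.8% of heart clusters and 9.16% of muscle clusters in the 3′ UTR length range. In the gene length range they held 888 of 6855 heart clusters and 400 of 4959 muscle clusters. Introns held 68 heart clusters (36.4%, against 58.9% elsewhere), 38 muscle clusters (38.4%, against 43.3%) and 8 myoblast clusters (72.7%, 39.0% to 94.0%, against 60.5%). The only 5′ UTR cluster was in Cox8a, a complex IV subunit, in myoblasts.

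**Figure D2:**
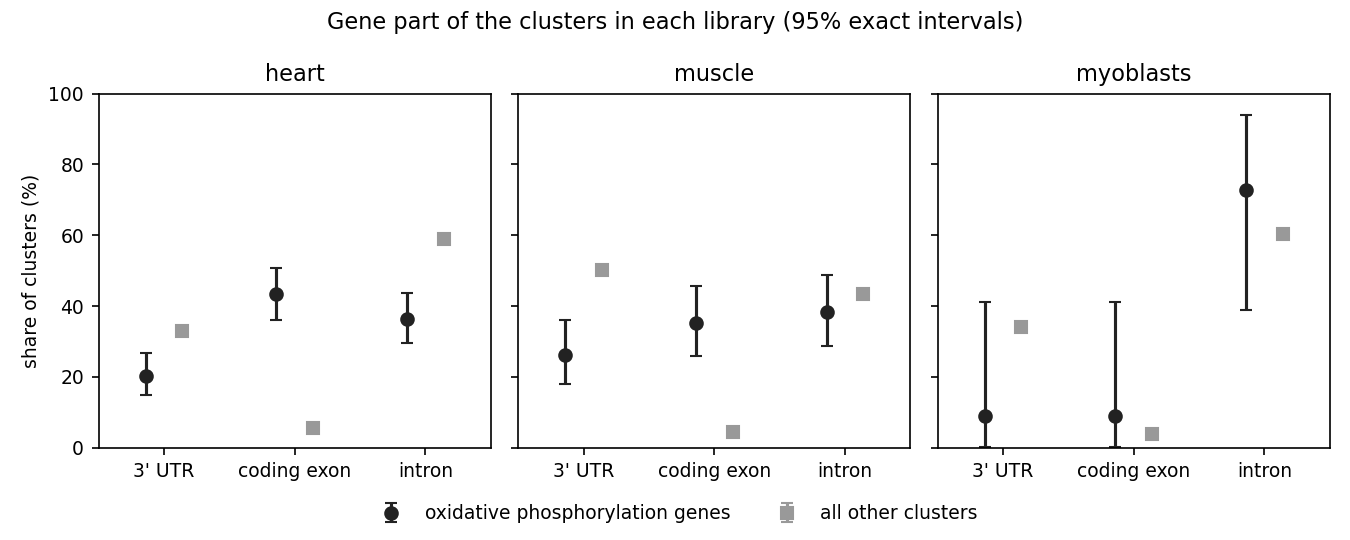
Share of clusters (vertical axis, %) in 3′ UTRs, coding exons and introns for oxidative phosphorylation genes (black circles) and for all other clusters (grey squares) in each library, with 95% exact intervals. The coding exon shares of 43.3% in heart and 35.4% in muscle lie far above the grey squares, and the myoblast intervals are wide because they rest on 11 clusters.

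Counted by gene, 39 of 97 genes had a coding exon cluster in heart (40.2%), against 7.26% of all protein-coding genes, and 22 had one in muscle (22.7%), against 3.71%. A 3′ UTR cluster was found in 19 genes in heart (19.6%), against 20.4% of all genes, and in 14 genes in muscle (14.4%), against 17.8%. The coding exon counts were several times above the background in both tissues. Where the 3′ UTR counts stood depended on the genes they were set against. Among genes within the 10th to 90th percentile of 3′ UTR length, 19.5% of the oxidative phosphorylation genes had a 3′ UTR cluster in heart, against 9.98% of all genes, and 14.3% in muscle, against 8.83%. Within the range of gene length the shares were 22.1% in heart, against 15.6%, and 14.3% in muscle, against 13.9%. The coding exon shares stayed above those of all genes in both ranges, with 41.6% against 6.28% in heart and 23.4% against 3.16% in muscle in the 3′ UTR length range. Per 100 kb of annotated coding sequence there were 149 clusters in heart and 64.6 in muscle, against 7.21 and 3.37 over all protein-coding genes. Per 100 kb of 3′ UTR there were 74.9 in heart and 51.2 in muscle, against 53.5 and 47.7 over all genes. Per 100 kb of intron there were 4.90 in heart and 2.74 in muscle, against 2.68 and 1.16 over all genes. The intron length of the oxidative phosphorylation genes includes the annotated Atp5o gene of 247290 nt, which also spans Cryzl1.

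No difference in parts between libraries passed 0.05 after adjustment. For the 3′ UTR share, no difference was detectable at these numbers of clusters between heart and muscle (two-sided Fisher's exact test, p = 0.297, adjusted p = 0.445 over 3 pairs), heart and myoblasts (exact p = 0.696, adjusted p = 0.696) or muscle and myoblasts (exact p = 0.288, adjusted p = 0.445). The same test was run for the other parts after the values had been seen. The coding exon share was 43.3% in heart and 9.09% in myoblasts (exact p = 0.0280, adjusted p = 0.0840), and the intron share 36.4% in heart and 72.7% in myoblasts (exact p = 0.0235, adjusted p = 0.0706). Muscle against myoblasts gave an adjusted exact p of 0.147 for coding exons and 0.0742 for introns. Heart against muscle gave adjusted exact p-values of 0.207 for coding exons and 0.797 for introns.

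Many coding exon clusters crossed into the neighbouring intron. A cluster was counted as crossing when it held both bases that flank an annotated exon-intron border, a count added after the values had been seen. Of the coding exon clusters, 38 of 81 crossed in heart (46.9%, 35.7% to 58.3%), against 24.7% of the other coding exon clusters of that library. In muscle 8 of 35 crossed (22.9%, 10.4% to 40.1%), against 23.1% of the others. The intervals of heart and muscle overlapped, but Fisher's exact test of heart against muscle gave p = 0.0222 without adjustment (odds ratio 2.98). That test was also run after the values had been seen. Clusters of the same gene are not independent, and the p-value covers counting error only. Ndufa9 contributed 5 of the heart clusters that crossed a border, and Atp5a1 and Ndufs1 contributed 3 each.

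Complex I, the NADH dehydrogenase, had 26 of 39 genes bound in any library, with 69 clusters in 23 genes in heart, 42 in 16 genes in muscle and 4 in 3 genes in myoblasts. Coding exons held 36 of the heart clusters and 18 of the muscle clusters. Ndufs1, the large iron-sulfur subunit, held 9 clusters in heart and 10 in muscle and none in myoblasts. In heart 5 were in coding exons, 3 in introns and 1 in the 3′ UTR, and in muscle 6 were in coding exons, 2 in introns and 2 in the 3′ UTR, so both tissues used the same parts in nearly the same numbers.

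Ndufs4, an accessory subunit of the part of complex I that takes up electrons, was bound almost wholly in introns, with 8 of 9 clusters in heart, 7 of 7 in muscle and 2 of 2 in myoblasts. The gene spans 100300 nt, and the stretch common to the 3 libraries lay 12386 nt from the nearest exon, measured from the middle of the myoblast cluster. Ndufa9, an accessory subunit of the matrix arm, held 9 clusters in heart, 6 of them in coding exons and 3 in introns, and none in muscle or myoblasts. It was the gene with the most clusters among those bound in heart alone. No cluster was found in 13 complex I genes, among them Ndufs8, a core iron-sulfur subunit, Ndufab1, the mitochondrial acyl carrier protein, and Ndufa13.

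Complex II, succinate dehydrogenase, was bound throughout. Its 4 genes all had clusters in both adult tissues, with 27 heart clusters, 16 muscle clusters and 1 myoblast cluster, and 17 of the heart clusters and 9 of the muscle clusters lay in 3′ UTRs. Sdha, the flavoprotein that oxidizes succinate, held 9 clusters in heart and 7 in muscle, of which 7 in heart and 6 in muscle lay in its 3′ UTR of 833 nt. They followed each other closely along that UTR in both tissues. Sdhc, a membrane anchor, held 12 heart clusters, 7 muscle clusters and 1 myoblast cluster. In heart these were 5 in the 3′ UTR, 3 in coding exons and 4 in introns, in muscle 2, 2 and 3 in the same parts, and the myoblast cluster was intronic. Sdhd, the other anchor, held 5 clusters in heart and 1 in muscle, all in the 3′ UTR. Sdhb, the iron-sulfur subunit, held 1 coding exon cluster in heart and 1 in muscle, which shared the stretch printed above.

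**Figure D3:**
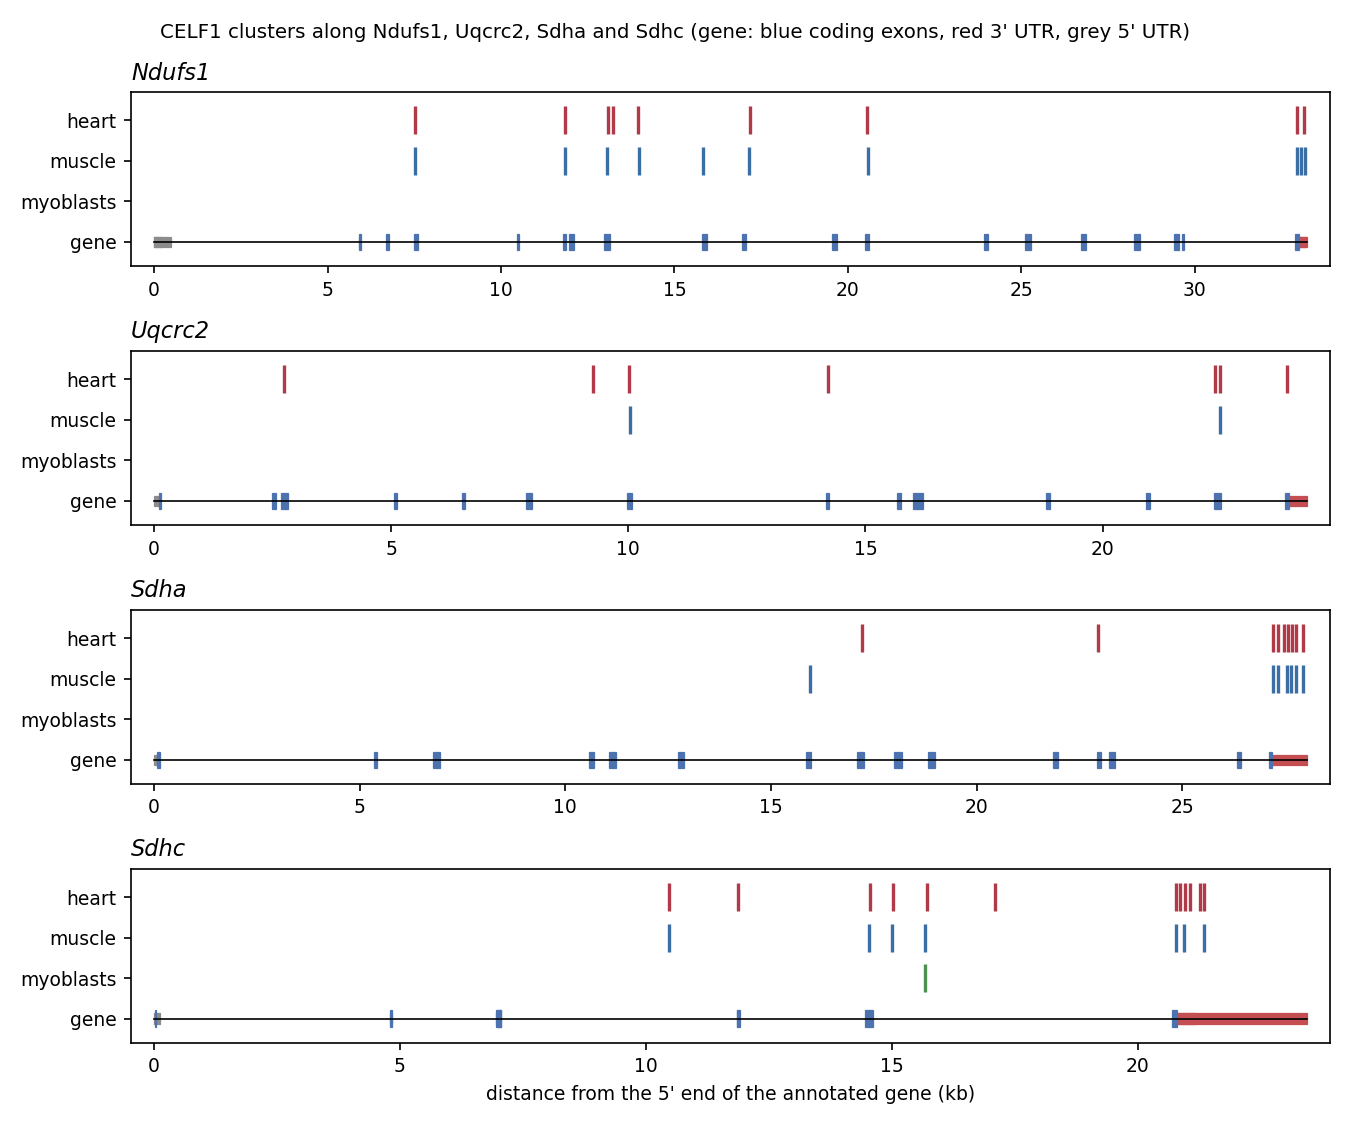
Positions of CELF1 clusters (ticks) in heart, muscle and myoblasts along Ndufs1, Uqcrc2, Sdha and Sdhc, drawn to scale as the distance from the 5′ end of each annotated gene in kb, with coding exons in blue, 3′ UTRs in red and 5′ UTRs in grey. Ndufs1 and Uqcrc2 ticks stand mostly at coding exons, and 7 of 9 heart ticks and 6 of 7 muscle ticks of Sdha stand in the 3′ UTR.

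Complex III, which passes electrons from ubiquinol to cytochrome c, was bound in more genes in heart than in muscle, with 25 clusters in 7 of 8 genes in heart and 7 clusters in 3 genes in muscle. Uqcrc2, a core protein, held 7 clusters in heart, 6 of them in coding exons, and 2 in muscle, both in coding exons. Uqcrc1, the other core protein, held 7 clusters in heart (3 in coding exons, 4 in introns), none in muscle and 1 intronic cluster in myoblasts. Uqcrfs1, the Rieske iron-sulfur protein, held 5 clusters in heart and 4 in muscle. Its heart clusters were 3 in coding exons and 2 in the 3′ UTR, its muscle clusters 2 and 2. Uqcrb, Uqcrq, Uqcr10 and Uqcr11, small subunits, were bound in heart only, with 1 or 2 clusters each.

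Complex IV, cytochrome c oxidase, had the lowest share of bound genes among the complexes in heart and muscle, with 12 clusters in 5 of 18 genes in heart and 6 clusters in 4 genes in muscle. In myoblasts it held 4 clusters in 3 genes (16.7%, against 13.4% of all protein-coding genes). Ndufa4, long counted with complex I and now placed in complex IV, held 3 heart clusters, 2 muscle clusters and 1 myoblast cluster. In heart 2 were in coding exons and 1 in the 3′ UTR, in muscle 1 was in a coding exon and 1 in an intron, and the myoblast cluster lay in a coding exon and overlapped a heart cluster. Cox6b1 held 3 clusters in heart and 2 in muscle, with 1 in the 3′ UTR in each. Cox8a was bound in myoblasts alone, with 2 clusters, and Cox6c likewise with 1 intronic cluster. The 11 genes without a cluster included Cox5b and Cox7c, the muscle-type isoforms Cox6a2, Cox7a1 and Cox8b, and Cox4i2, the isoform known for induction by low oxygen. Of the 31-base runs in their exons, 30.3% in Cox5b and 70.0% in Cox7c were found once in the genome. The share was 100% in Cox6a2, Cox7a1, Cox8b and Cox4i2. The 3 heart clusters of Cox4i1 also lay within another annotated gene on the same strand, Gm20388, and those of the complex I gene Ndufb2 within Adck2, so their assignment is uncertain.

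Complex V had 12 of 17 genes bound, with 37 clusters in 11 genes in heart, 22 in 7 genes in muscle and 1 in myoblasts. Atp5a1, the alpha subunit of the F1 head, held 10 clusters in heart and 6 in muscle. In heart 6 lay in coding exons, 3 in the 3′ UTR and 1 in an intron, whereas in muscle 4 lay in the 3′ UTR and 2 in coding exons. Atp5c1, the gamma subunit that forms the rotating stalk, was bound only in introns, with 4 heart clusters, 5 muscle clusters and 1 myoblast cluster, and the myoblast cluster overlapped none of the others. Atp5b, the catalytic beta subunit, held 3 clusters in heart and 3 in muscle, with 2 in coding exons and 1 in an intron in each, all of them also inside the annotated gene Baz2a on the same strand. Atp5g3, a subunit of the membrane ring, held 4 clusters in heart and 2 in muscle, with 1 in the 3′ UTR in each tissue, and Atp5pb, a stalk subunit, held 3 in heart and 3 in muscle, likewise with 1 in the 3′ UTR. Atp5g2 encodes the same mature ring protein as Atp5g3. No 31-base run of its exons occurred once on the assembled chromosomes, so its single heart cluster is uncertain.

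Assembly and regulatory factors with these prefixes had 7 of 14 genes bound, with 17 clusters in heart, 6 in muscle and none in myoblasts. Only 1 of them, in Sdhaf4 in heart, lay in a coding exon. Ndufaf4, a complex I assembly factor, held 2 clusters in heart and 2 in muscle, all in the 3′ UTR. Sdhaf4, a complex II assembly factor, held 3 clusters in heart (2 in the 3′ UTR) and 1 in muscle, in the 3′ UTR.

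**Figure D4:**
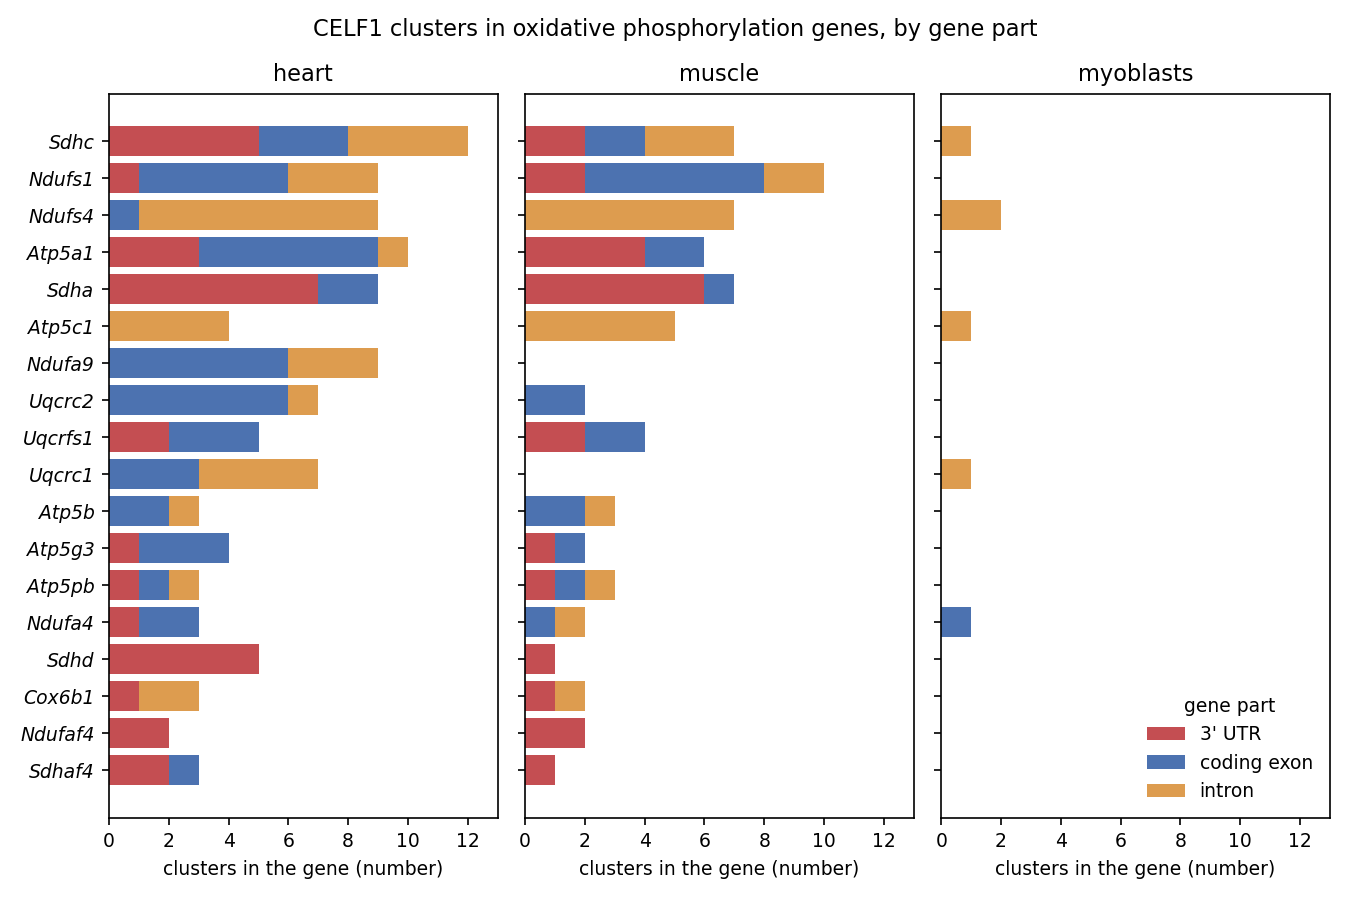
Number of clusters (horizontal axis) in heart, muscle and myoblasts for genes among the 12 with the most clusters, those with a 3′ UTR cluster in 2 or more libraries and those bound in all 3, coloured by gene part. Sdhc reached 12 clusters in heart, Ndufs1 10 in muscle, and no gene held more than 2 in myoblasts.

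Heart and muscle clusters often lay on the same positions. Of the 99 muscle clusters 71.7% (61.8% to 80.3%) overlapped a heart cluster by at least 1 base, against 52.7% of the other muscle clusters, and of the 187 heart clusters 38.5% (31.5% to 45.9%) overlapped a muscle cluster, against 30.9% of the other heart clusters. In muscle the overlap with heart was 88.5% (69.8% to 97.6%) of 26 clusters in 3′ UTRs, 80.0% (63.1% to 91.6%) of 35 in coding exons and 52.6% (35.8% to 69.0%) of 38 in introns. The corresponding shares of the other muscle clusters were 60.8%, 48.7% and 43.6%. Of the 11 myoblast clusters, 4 overlapped a heart cluster (36.4%, against 33.9% of the other myoblast clusters) and 2 a muscle cluster (18.2%, against 25.1%). The heart and muscle overlaps formed 28 shared stretches in 3′ UTRs of 12 genes, 28 in coding exons of 18 genes and 20 in introns of 15 genes.

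UGU was present in 176 of 187 heart clusters (94.1%, 89.7% to 97.0%), against 98.3% of the other heart clusters. It was present in 94 of 99 muscle clusters (94.9%, 88.6% to 98.3%), against 98.4%, and in 10 of 11 myoblast clusters (90.9%, 58.7% to 99.8%), against 86.3%. UGU was searched on the transcribed strand and overlapping matches were counted. Per 100 nt there were 3.92 UGU in heart coding exon clusters, 4.28 in heart 3′ UTR clusters and 9.57 in heart intron clusters, against 4.44, 5.60 and 11.5 in the other heart clusters of those parts. Muscle gave 4.72, 4.47 and 10.9 for coding exons, 3′ UTRs and introns, against 4.77, 5.65 and 11.5. The coding exon clusters thus carried fewer UGU per length than the intronic ones in both tissues, as did those of other genes. Of the 11 heart clusters with no UGU, 6 lay in coding exons.

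Distances within genes were short. The median distance of the 3′ UTR clusters from the annotated transcript end was 294 nt in heart and 256.5 nt in muscle, against 885 nt and 840 nt for other clusters. The median distance of intronic clusters from the nearest exon edge was 750.5 nt in heart, 782.5 nt in muscle and 899.5 nt in myoblasts, against 3677 nt, 2742 nt and 2508 nt for other clusters. Introns and 3′ UTRs of these genes are themselves short, and the part of their length in these distances was not tested.

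Other mitochondrial genes were counted in the same way for comparison. Of all protein-coding genes, 33.4% were bound in heart, 26.0% in muscle and 13.4% in myoblasts. All 18 tricarboxylic acid cycle genes, including the pyruvate dehydrogenase subunits, were bound in heart, with 139 clusters, 15 in muscle, with 63 clusters, and 4 in myoblasts, with 4 clusters. Ogdh, a subunit of the 2-oxoglutarate dehydrogenase complex, held 32 heart clusters, 11 muscle clusters and 1 myoblast cluster. Coding exons held 27.3% of the heart clusters (20.1% to 35.5%) and 11.1% of the muscle clusters (4.59% to 21.6%) of these genes, and their coding density was 155 clusters per 100 kb in heart and 28.6 in muscle. The density in heart was thus near the 149 of the oxidative phosphorylation genes, and in muscle below their 64.6.

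Among 63 other respiratory chain genes (electron carriers, ubiquinone synthesis, carriers of phosphate and nucleotides, and assembly factors outside the prefixes), 38 were bound in heart, 28 in muscle and 9 in myoblasts. The shares were 60.3%, 44.4% and 14.3%, against 57.0%, 39.0% and 9.0% of the 100 oxidative phosphorylation genes. Coding exons held 16.0% of the heart clusters and 11.1% of the muscle clusters of these 63 genes. Slc25a4, the main adenine nucleotide translocator of heart and muscle, was bound in coding exons only, with 6 clusters in heart and 4 in muscle. Coa5, a complex IV assembly factor, was bound in the 3′ UTR only, with 14 heart clusters, 13 muscle clusters and 1 myoblast cluster. The 17 regulators of mitochondrial biogenesis were bound mainly outside coding exons, with 3.11% of heart clusters and 1.43% of muscle clusters in them. Ppargc1a, a coactivator that drives oxidative phosphorylation genes, held 27 clusters in heart and 15 in muscle, of which 12 in heart and 11 in muscle were in the 3′ UTR.

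Ribosomal protein genes, also short, served as a contrast. Only reads with a unique match had been kept, and how much exonic sequence is unique was measured for the oxidative phosphorylation genes alone. The part of unique mapping in the ribosomal protein counts was therefore not tested. Of 91 cytosolic ribosomal protein genes, 8 were bound in heart, 10 in muscle and 11 in myoblasts, and no cluster lay in a coding exon in heart. Of 78 mitochondrial ribosomal protein genes, 39 were bound in heart, 22 in muscle and 8 in myoblasts, with 16.5% of heart clusters and 5.13% of muscle clusters in coding exons. Their coding density was 29.7 clusters per 100 kb in heart and 3.96 in muscle.

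**Figure D5:**
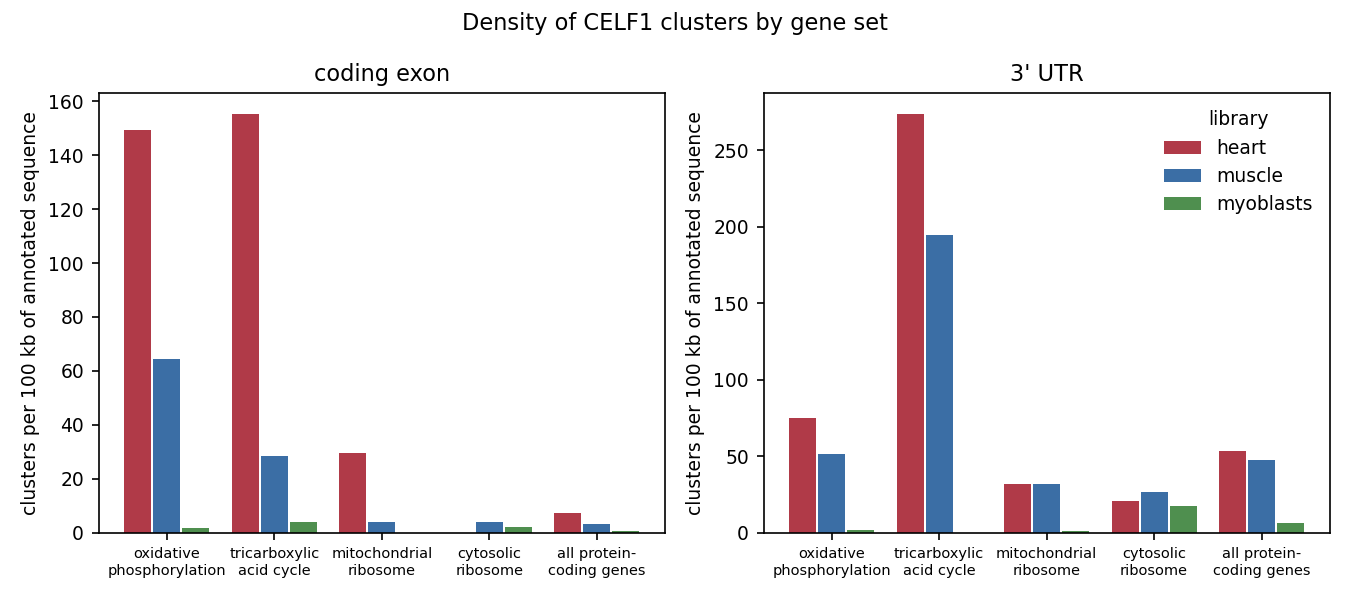
Clusters per 100 kb of annotated coding exon (left) and 3′ UTR (right) in heart, muscle and myoblasts for oxidative phosphorylation, tricarboxylic acid cycle, mitochondrial ribosome and cytosolic ribosome genes and for all protein-coding genes. In coding exons the oxidative phosphorylation genes reach 149 in heart and 64.6 in muscle, and cytosolic ribosome genes have no coding exon cluster in heart. The share of unique exonic sequence was not measured for the other gene sets.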

How the data were processed

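According to the labels and methods, the authors trimmed and mapped the reads to mm9 and its splice junctions with Bowtie and TopHat (versions not given in the sources used here), kept unique matches, and called clusters in each library separately with a Poisson test in windows of 30 nt. The deposited values are start and end positions with an Entrez identifier. A further column held 1e-06 in every row and was not used. Unique mapping leaves out sequence shared with pseudogenes: the median share of 31-base exonic runs found once in the genome was 97.6% for bound and 93.7% for unbound genes, and 8 genes were below 50%.

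Symbols for the identifiers came from RefSeq's gene table, which belongs to a newer assembly and served only for naming. Of the 100 genes 97 matched the GENCODE vM1 annotation of NCBIM37, the assembly of mm9. Ndufb1, Ndufb4b and Ndufb4c were not matched and held no cluster. A cluster was placed by its midpoint in the 3′ UTR, coding exon, 5′ UTR or intron, in that order, over all coding transcripts of its gene. Named genes were the 12 with the most clusters, those with a 3′ UTR cluster in 2 or more libraries and those bound in all 3; others named were chosen by role or count after their values were seen. A gene that the rule names is not reported here. Genes and lists were chosen with earlier results of these data known. Intervals were exact Clopper-Pearson at 95%, and pairs of libraries were compared with Fisher's exact test (two-sided), adjusted by Benjamini-Hochberg over 3 pairs. Border crossing was compared between heart and muscle only, without adjustment. Alternatives were gene assignment by position, structural subunits only, cluster width, joined neighbours, at least 2 clusters, part by overlap or priority, each gene once, leaving out the leading gene, reciprocal overlap, widened clusters and length-limited backgrounds. The part assignment was tested on simulated positions. Programs were scipy 1.17.1, pandas 2.3.3, numpy 2.4.6, numba 0.67.0, matplotlib 3.10.9 and pysam 0.24.0 under Python 3.11.15.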

Additional observations from a re-analysis of the deposited data

How the results depend on the processing

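Of 123 values recomputed under alternatives, 102 stayed within counting error or 1.5 times, 21 moved, none reversed and no test crossed 0.05. With each gene counted once, the share of bound genes with a cluster was 33.3% in 3′ UTRs, 68.4% in coding exons and 59.6% in introns in heart, and 56.4% in coding exons and 59.0% in introns in muscle. With 50% reciprocal overlap, 31.0% of heart clusters overlapped muscle and 58.6% of muscle clusters overlapped heart. Among all genes of like length, heart bound 24.8%, muscle 18.7% and myoblasts 7.93%, and among those with a like 3′ UTR length heart bound 24.4%, muscle 17.7% and myoblasts 8.48%. At least 2 clusters were found in 21 genes in muscle and 2 in myoblasts. Clusters of at least 45 nt, a limit added because no cluster was narrower than 35 nt and the planned 30 nt changed nothing, gave 0.514% of clusters in heart, and 1 cluster in 1 gene (0.0748%) in myoblasts. Without Cox8a, myoblasts had a 3′ UTR share of 0% and a 5′ UTR share of 0%. Joining neighbours within 30 nt, also added, left heart with 166 clusters, muscle with 89 and myoblasts with 11. No paired analysis was possible because each source gave 1 library. The myoblast values rest on 11 clusters, and read numbers behind clusters are unknown.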
